A study of Homo sapiens with 6 samples.

Results

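The expression of 10 long non-coding RNA (lncRNA) genes was compared between MDA-MB-231 cells with and without depletion of YAP1. The 10 genes, MALAT1, NEAT1, SNHG1, GAS5, H19, HOTAIR, PVT1, TUG1, NORAD and MIR22HG, were taken by their symbols from 60612 gene identifiers. MDA-MB-231 is an established human triple-negative breast cancer (TNBC) cell line of epithelial origin. YAP1 is a transcriptional co-activator of the Hippo pathway that binds DNA through TEAD factors. The control group (Sh-NC, labelled WT) expressed a control short hairpin RNA and the depleted group (Sh-YAP1, labelled YAP1 knockdown) a hairpin against YAP1. Both groups had 3 libraries, received no treatment and were collected on day 3. The labels name the hairpin only as shYAP1, while the study also writes of YAP1 hairpins in the plural, so how many were used for these libraries is not clear. The study describes its data in general as obtained independently, but the labels do not say whether the libraries of a group came from separate cultures. The p-values therefore measure the spread between these libraries, which may be technical.

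Expression was given as FPKM, the sequenced fragments per kilobase relative to the size of the library, a level corrected for transcript length. Each file listed several rows for a gene, 1 per transcript, and the rows of a gene were added. The FPKM of all genes summed to between 467493 and 475116 per library, and between 13037 and 13219 genes reached 1 FPKM. Read counts were not given, so the depth of the libraries is unknown. Gene values were compared as log2(FPKM + 1) with limma and Benjamini-Hochberg adjustment over the 14770 genes whose mean reached 0.5 FPKM. Log2 fold changes are Sh-YAP1 minus Sh-NC on that scale, which understates the change of low genes. YAP1 itself lay between 22.9 and 28.1 FPKM across Sh-NC and between 2.58 and 3.35 FPKM across Sh-YAP1. Of the markers of the line, VIM lay between 1645 and 2303 FPKM and KRT18 between 99.9 and 125.9 FPKM. All 6 such markers tested had a negative log2 fold change, with a median of -0.19. KRT18 and AXL were lower in every Sh-YAP1 library, where 14.7% of all genes were. AXL passed the test (log2 fold change -0.35, limma adjusted p = 0.0390), where 1.62% of all genes fell. It did not pass when any 1 library was left out. ERBB2 at 14.3 to 18.1 FPKM and GATA3 at 4.64 to 7.34 FPKM were not near 0, whereas ESR1 and PGR were. Of the markers of other cell types, PTPRC, CD3E, VWF, DCN and MYH11 did not pass 0.35 FPKM, whereas PECAM1 of endothelial cells lay between 0.76 and 1.70 FPKM and COL1A1 of fibroblasts between 3.64 and 8.32 FPKM. Their part in the results was not tested.

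LncRNAs act as RNA and are not translated into long proteins. MALAT1 lies in nuclear speckles, domains rich in splicing factors, and NEAT1 is the scaffold around which paraspeckles, another kind of nuclear body, assemble. NORAD is a cytoplasmic RNA that binds Pumilio proteins such as PUM2. GAS5 and SNHG1 carry small nucleolar RNAs (snoRNAs) in their introns, and their spliced RNAs are known targets of nonsense-mediated decay. PVT1 lies beside the MYC gene. MIR22HG and H19 are host transcripts of microRNAs. TUG1 and HOTAIR have been described as partners of the Polycomb repressive complex PRC2.

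None of the 10 lncRNAs passed the test (limma, Benjamini-Hochberg adjusted p under 0.05), against 3.38% of all genes tested (1.75% higher and 1.62% lower in Sh-YAP1). Of the 8 lncRNAs that could be tested, 6 had an unadjusted p under 0.05, against 21.9% of all genes tested. The same 6 had no overlap between the groups, against 29.4% of all genes, and 4 had none without the rows above 1 FPKM in a single library. NEAT1, TUG1 and NORAD lay higher in every Sh-YAP1 library, where 14.6% of all genes did. SNHG1, GAS5 and PVT1 lay lower in every Sh-YAP1 library, where 14.7% of all genes did. MALAT1 and MIR22HG overlapped between the groups. H19 and HOTAIR were below the 0.5 FPKM filter. An exact two-sided permutation test of 3 libraries against 3 cannot give a p below 0.1, and it gave 0.1 for each of the 6 lncRNAs without overlap. The median log2 fold change was 0.06 over the 8 lncRNAs and -0.0014 over all genes tested.

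**Figure D1:**
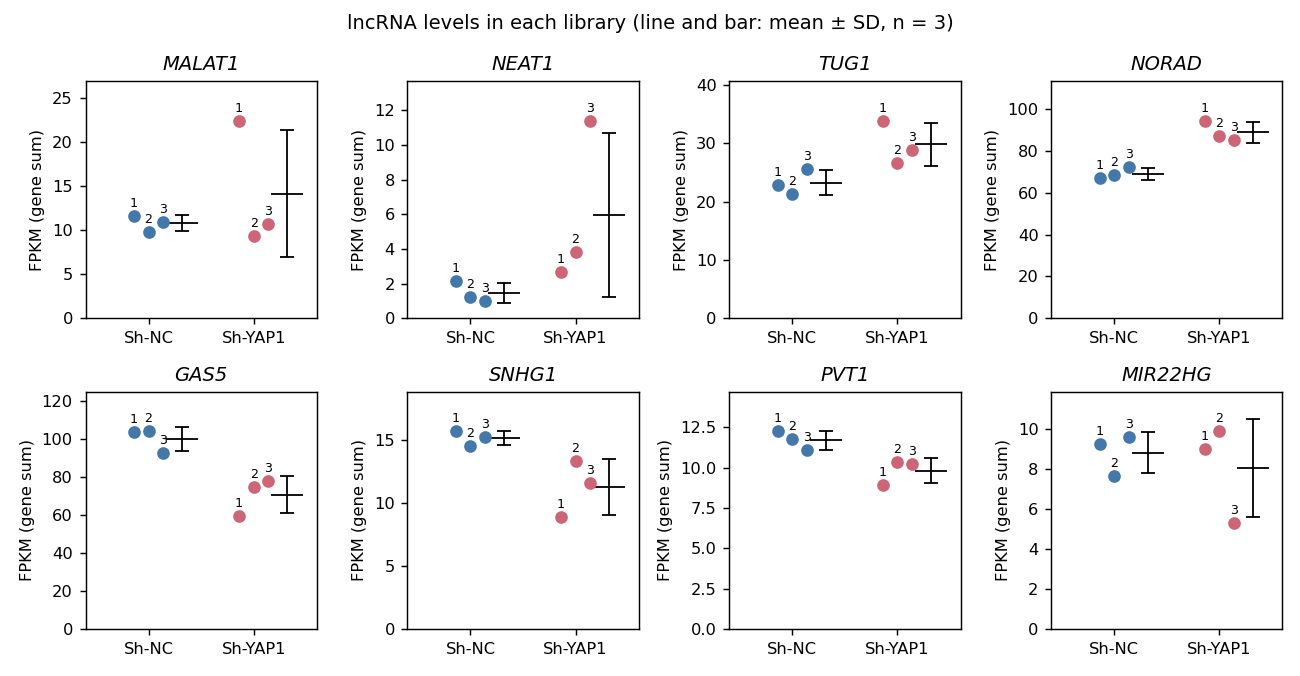
FPKM of the 8 tested lncRNA genes in each library, on a separate linear axis from 0 for each gene. Points are libraries with their replicate numbers, and the line and bar beside them are the mean ± SD (n = 3). All Sh-YAP1 points of NORAD, TUG1 and NEAT1 lie above and all those of GAS5, SNHG1 and PVT1 below the Sh-NC points, with NEAT1 reaching 11.4 FPKM in Sh-YAP1 replicate 3.

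The levels of the 10 genes ranged over several orders of size. GAS5 had the highest mean over the 6 libraries, 85.5 FPKM, and was 7th of the 15878 lncRNA identifiers of the GENCODE 29 annotation. NORAD followed with 79.0 FPKM and was 9th. The lncRNA with the highest mean was SNHG29 at 379.8 FPKM. MALAT1, an abundant nuclear RNA in many tissues, was 52nd among lncRNAs and lay at percentile 63.9 of all genes tested. NEAT1 was 237th. GAS5 and NORAD were thus the only ones of the 10 among the 10 lncRNAs of highest level, and H19 and HOTAIR were at or near 0. Together the 10 genes made up 0.0499% to 0.0523% of the summed FPKM per library. Whether polyadenylated RNA was selected is not stated, which bears on how far levels of nuclear RNAs can be compared with those of mRNAs.

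MALAT1 (ENSG00000251562) lies on the plus strand of chromosome 11 from 65497688 to 65506516 of GRCh38. All gene positions given here are from GENCODE 29 on that build. Its level was 11.6, 9.79 and 10.95 FPKM in the Sh-NC libraries 1 to 3 and 22.4, 9.31 and 10.7 FPKM in the Sh-YAP1 libraries 1 to 3. A single library, Sh-YAP1 replicate 1, stood apart, and the other 5 lay within 9.31 to 11.6 FPKM. On average Sh-NC had 10.8 ± 0.92 FPKM and Sh-YAP1 14.2 ± 7.21 FPKM (SD, n = 3 each). This gave a log2 fold change of 0.27 (standard error 0.30, 95% interval -0.45 to 0.98, limma adjusted p = 0.653). Without Sh-YAP1 replicate 1 it was -0.098. Of the 17 rows of MALAT1, the highest held 94.4% of the mean, and it carried 22.1 FPKM of the high library. LTBP3, a neighbouring gene that encodes a binding protein of latent TGF-beta, lay 32.3 kb away and had a log2 fold change of -0.17 (limma adjusted p = 0.596).

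NEAT1 (ENSG00000245532) lies on the same strand of chromosome 11, from 65422774 to 65445540. Its level was 2.14, 1.2 and 1.02 FPKM in the Sh-NC libraries and 2.67, 3.82 and 11.4 FPKM in the Sh-YAP1 libraries. The groups did not overlap, and the spread in Sh-YAP1 was wide. Group means were 1.45 ± 0.60 FPKM for Sh-NC and 5.97 ± 4.75 FPKM for Sh-YAP1 (SD, n = 3 each), and the log2 fold change was 1.33 (standard error 0.45, 95% interval 0.25 to 2.40). It did not pass the test (limma adjusted p = 0.158), and without Sh-YAP1 replicate 3 the log2 fold change was 0.80.

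The rows behind the NEAT1 values differed between the 3 Sh-YAP1 libraries. In replicate 3, 10.85 of the 11.4 FPKM came from a row that was 0 in the other 5 libraries. In replicate 1, 1.81 FPKM came from another row that was 0 in the other 5. In replicate 2, the largest share came from a row at 2.85 FPKM that was at 1.53 FPKM in Sh-NC replicate 1 and at 0 in Sh-YAP1 replicate 1. A row found in every library, the 3rd by mean, was at 0.35, 0.41 and 0.44 FPKM in the Sh-NC libraries and 0.55, 0.72 and 0.23 FPKM in the Sh-YAP1 libraries. Without the rows above 1 FPKM in a single library, NEAT1 was at 0.86, 3.82 and 0.56 FPKM in Sh-YAP1, and these values overlapped with Sh-NC. The log2 fold change was then 0.00 (limma adjusted p = 0.999). The files do not name the transcript of a row, so the short and long forms of NEAT1 cannot be told apart.

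**Figure D2:**
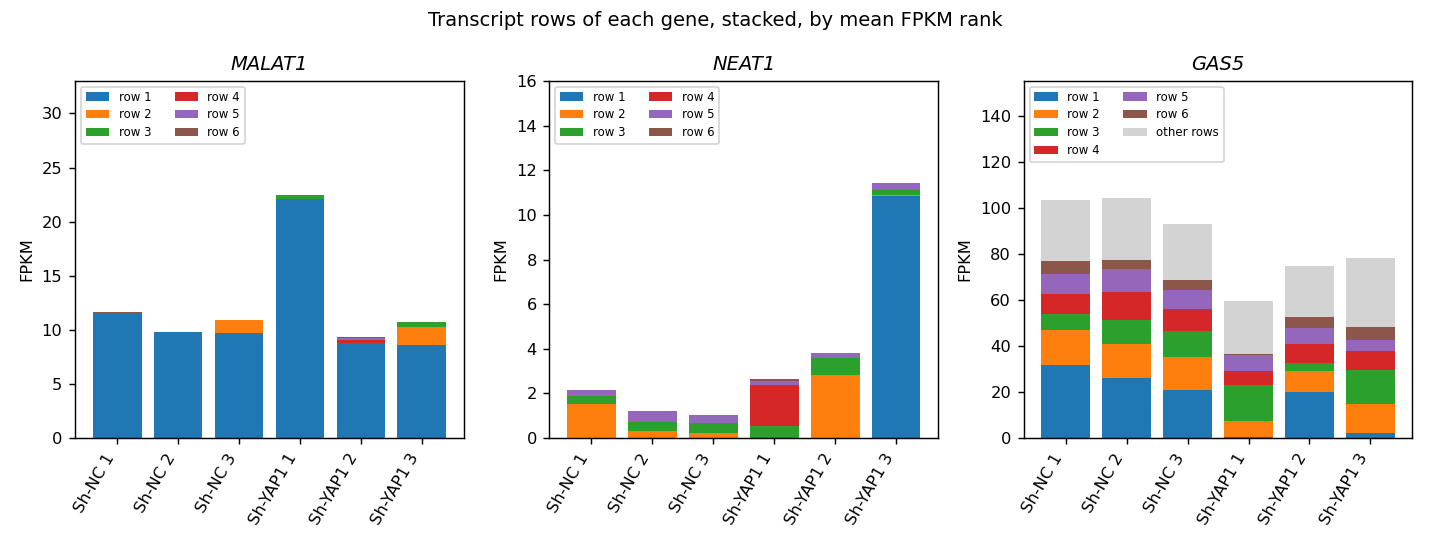
FPKM of MALAT1, NEAT1 and GAS5 in each library, stacked by row of the files, with rows ranked by their mean over the 6 libraries. The high value of MALAT1 in Sh-YAP1 replicate 1 sits in its main row, that of NEAT1 in Sh-YAP1 replicate 3 sits in a row absent from the other 5 libraries, and row 1 of GAS5 is at 0.32 and 2.32 FPKM in 2 Sh-YAP1 libraries.

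The RNA levels of genes for proteins of both nuclear bodies were compared beside MALAT1 and NEAT1, and the proteins were not measured. Of 17 paraspeckle protein genes tested, 1 rose and 1 fell, where 1.75% of all genes rose and 1.62% fell, with a median log2 fold change of -0.02. TAF15, an RNA-binding protein, was at 107.9, 102.9 and 99.5 FPKM across Sh-NC and 136.5, 131.0 and 126.6 FPKM across Sh-YAP1. It rose by a log2 fold change of 0.34 (limma adjusted p = 0.0467). It did not pass when any 1 of the 6 libraries was left out. SFPQ and NONO, core paraspeckle proteins that bind NEAT1, had log2 fold changes of 0.23 and -0.19 (limma adjusted p = 0.276 and 0.268) and were named after their values were seen. The lowest of the list was TARDBP at -0.57 (limma adjusted p = 0.245). None of 10 nuclear speckle protein genes passed the test, and 2 had an unadjusted p under 0.05, where 3.38% and 21.9% of all genes did. Their log2 fold changes ran from -0.22 for SRRM2 to 0.28 for CLK1, with a median of -0.06.

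NORAD (ENSG00000260032) lies on the minus strand of chromosome 20 from 36045622 to 36050960 and has no intron in the annotation, and it filled a single row of the files. Its transcript of 5339 bases is built of repeats that hold binding elements of the Pumilio proteins, which shorten the life of mRNAs that carry the same element. The letters TGTANATA occurred 15 times in it, or 2.81 times per kb. Of 1426 lncRNA transcripts of at least 3000 bases in GENCODE 29, 3 held as many or more, NORAD included, and the median was 0. The elements came in pairs at 3 places, with their first bases 9 apart. The stretches are shown with positions counted from the first base of the transcript, written as DNA, and capitals mark the elements.
NORAD 1436 to 1465: tatctgTGTATATAgTGTACATAaaggaca
NORAD 2633 to 2662: ctatacTGTATATAtTGTATATAtaacgga
NORAD 3269 to 3298: gtgctgTGTATATAgTGTATATAagcggac

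NORAD was at 66.9, 68.3 and 72.2 FPKM across Sh-NC and 94.6, 87.1 and 85.1 FPKM across Sh-YAP1. All 3 Sh-YAP1 libraries lay above all 3 Sh-NC libraries, with a gap wider than the range of either group. On average Sh-NC had 69.1 ± 2.76 FPKM and Sh-YAP1 88.9 ± 4.98 FPKM (SD, n = 3 each), a ratio of 1.29. The estimated log2 fold change was 0.36 (standard error 0.07, 95% interval 0.19 to 0.53). NORAD was the nearest of the 10 to the threshold without passing it (limma adjusted p = 0.0509). Its adjusted p was under 0.05 with a filter of 1 FPKM (limma, 0.0470) and with quantile normalization (limma, 0.0436), and it reached 0.170 over the other alternatives.

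None of the 6 genes tested for protein partners of NORAD, PUM2 among them, passed the test at the RNA level. Of the 6, 1 had an unadjusted p under 0.05, where 21.9% of all genes did. PUM2 averaged 17.9 ± 3.86 FPKM across Sh-NC and 18.7 ± 2.02 FPKM across Sh-YAP1 (SD, n = 3 each). Its log2 fold change was 0.08 (limma adjusted p = 0.817). ALYREF, an mRNA export adaptor, was the lowest at -0.41 (limma adjusted p = 0.0551). The 95% interval of PUM2 ran from -0.31 to 0.46, so a difference of the size seen for NORAD was within it.

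RefSeq held a promoter of 300 bases, from 250 before to 50 after the start, for 7 of the 10 genes. CATTCC or GGAATG, the core letters of the TEAD motif, were searched on both strands and occurred in 14% of 35116 promoters. TGACTCA, the AP-1 motif, occurred in 4.95% and CACGTG, an E-box, in 7.26%. Of the 7 genes, only NORAD had a promoter with the TEAD letters, a share near the 14% of all promoters. They lay at 2 places on the same strand, 123 and 116 bases before the start. The NORAD promoter also held an E-box 138 bases before the start. The promoter of TUG1 held an E-box 77 bases before the start. None held the AP-1 letters. Both promoters with a match are shown, chosen after the values were seen, on the strand of the gene with the matches in capitals, since the comparison is one of YAP1. A match says only that the letters are present.
NORAD, GRCh38.p14 chr20:36050911-36051210, minus strand: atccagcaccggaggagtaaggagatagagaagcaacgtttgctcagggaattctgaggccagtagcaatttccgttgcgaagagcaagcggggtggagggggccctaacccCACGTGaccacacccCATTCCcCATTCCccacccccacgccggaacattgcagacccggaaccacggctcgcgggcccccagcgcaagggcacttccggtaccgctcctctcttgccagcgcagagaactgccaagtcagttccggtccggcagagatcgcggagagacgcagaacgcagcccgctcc
TUG1, GRCh38.p14 chr22:30969015-30969314, plus strand: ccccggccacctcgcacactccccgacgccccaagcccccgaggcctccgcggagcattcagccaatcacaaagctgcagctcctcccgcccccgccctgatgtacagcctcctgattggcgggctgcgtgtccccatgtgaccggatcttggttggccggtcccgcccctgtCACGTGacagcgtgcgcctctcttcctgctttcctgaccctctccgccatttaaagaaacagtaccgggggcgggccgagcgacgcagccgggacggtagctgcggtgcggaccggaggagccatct

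TUG1 (ENSG00000253352) lies on the plus strand of chromosome 22 from 30969245 to 30979395. Its level was 22.8, 21.3 and 25.6 FPKM in the Sh-NC libraries and 33.9, 26.6 and 28.9 FPKM in the Sh-YAP1 libraries. The groups did not overlap, although Sh-NC replicate 3 and Sh-YAP1 replicate 2 lay close. Group means were 23.3 ± 2.16 FPKM for Sh-NC and 29.8 ± 3.72 FPKM for Sh-YAP1 (SD, n = 3 each). This gave a log2 fold change of 0.34 (standard error 0.11, 95% interval 0.07 to 0.61, limma adjusted p = 0.152). The main of its 20 rows, with 62.5% of the mean, was at 14.3, 13.0 and 16.1 FPKM across Sh-NC and 20.9, 16.3 and 18.9 FPKM across Sh-YAP1. The sum of the other rows did not overlap between the groups either, with a log2 difference of 0.30. MORC2, whose start lies 0.9 kb away on the opposite strand, had a log2 fold change of 0.00 (limma adjusted p = 0.999).

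HOTAIR (ENSG00000228630), on the minus strand of chromosome 12 from 53962308 to 53974956, was listed at 0 in all 5 rows and all 6 libraries. The overlapping gene HOXC11 and the neighbour HOXC12 were also listed at 0, and HOXC10 lay between 0.28 and 0.49 FPKM. The genes of the proteins that HOTAIR and TUG1 have been reported to bind, those of PRC2 and the LSD1 complex, were well expressed as RNA. Of 13 genes tested, 2 fell and none rose, where 1.62% of all genes fell and 1.75% rose, with a median log2 fold change of -0.25. EZH2, the methyltransferase of PRC2, was at 35.1, 35.3 and 37.1 FPKM in the Sh-NC libraries and 22.5, 21.4 and 21.2 FPKM in the Sh-YAP1 libraries. It had a log2 fold change of -0.70 (limma adjusted p = 0.00881). RCOR1, a scaffold of the LSD1 complex, was at 28.6, 28.2 and 28.6 FPKM across Sh-NC and 22.4, 21.6 and 20.7 FPKM across Sh-YAP1. It had a log2 fold change of -0.38 (limma adjusted p = 0.0349). EZH2 passed with each library left out in turn but not with the replicate number as a block (limma adjusted p = 0.103), and RCOR1 did not pass with any 1 library left out. JARID2, a PRC2 cofactor, was the highest of the list at 0.37 (limma adjusted p = 0.0844).

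GAS5 (ENSG00000234741) lies on the minus strand of chromosome 1 from 173863900 to 173868882. Its level was 103.6, 104.2 and 92.8 FPKM in the Sh-NC libraries and 59.5, 74.8 and 78.2 FPKM in the Sh-YAP1 libraries. The lowest Sh-NC library lay above the highest Sh-YAP1 library. On average Sh-NC had 100.2 ± 6.40 FPKM and Sh-YAP1 70.8 ± 9.95 FPKM (SD, n = 3 each), a ratio of 0.71. The estimated log2 fold change was -0.50 (standard error 0.12, 95% interval -0.78 to -0.22), and it did not pass the test (limma adjusted p = 0.0732). The rows behind the difference did not move together. The row of the highest mean was at 31.5, 25.9 and 20.9 FPKM across Sh-NC and 0.32, 20.0 and 2.32 FPKM across Sh-YAP1. Without it GAS5 was at 72.0, 78.3 and 71.9 FPKM in the Sh-NC libraries and 59.2, 54.7 and 75.9 FPKM in the Sh-YAP1 libraries, and the groups overlapped with a log2 difference of -0.24. The second row was lower in all Sh-YAP1 libraries, at 7.26 to 12.3 FPKM against 14.3 to 15.4 FPKM. The third row overlapped, at 6.88, 10.7 and 11.4 FPKM across Sh-NC and 15.3, 3.68 and 15.0 FPKM across Sh-YAP1. It was highest in Sh-YAP1 replicates 1 and 3, where the first row was lowest. Leaving out the first row keeps these values, so the overlap does not show that the difference rests on that row alone. GAS5-AS1 and ZBTB37 overlap GAS5 on the opposite strand, with group means of 0.48 and 0.50 FPKM for GAS5-AS1 and 1.30 and 1.40 FPKM for ZBTB37 in Sh-NC and Sh-YAP1. The strandedness of the libraries is not stated.

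SNHG1 (ENSG00000255717) lies on the minus strand of chromosome 11 from 62851988 to 62855914. Its level was 15.7, 14.5 and 15.3 FPKM across Sh-NC and 8.88, 13.4 and 11.6 FPKM across Sh-YAP1. Sh-NC was tight and every Sh-YAP1 library lay below it. Group means were 15.2 ± 0.58 FPKM for Sh-NC and 11.3 ± 2.25 FPKM for Sh-YAP1 (SD, n = 3 each). This gave a log2 fold change of -0.41 (standard error 0.14, 95% interval -0.75 to -0.08, limma adjusted p = 0.159). Without the highest of its 54 rows the groups still did not overlap, with a log2 difference of -0.47. The log2 fold change was -0.27 without Sh-YAP1 replicate 1 (limma adjusted p = 0.229) and -0.28 without the rows above 1 FPKM in a single library (limma adjusted p = 0.440). SLC3A2, an amino acid transporter chain that starts 0.2 kb away on the opposite strand, had a log2 fold change of -0.29 (limma adjusted p = 0.188). WDR74, on the other side at 10.2 kb, had a log2 fold change of -0.28 (limma adjusted p = 0.114).

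Many snoRNA host genes begin with a C followed by a run of pyrimidines, the terminal oligopyrimidine (TOP) start that they share with ribosomal protein mRNAs and that ties translation to growth signals. The commonest first 30 bases of the annotated transcripts are shown for GAS5 and SNHG1, for 2 hosts that fell, SNHG32 and SNHG17, and for SNHG5, the lowest of the list. Capitals mark the leading pyrimidines.
GAS5: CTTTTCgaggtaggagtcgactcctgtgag
SNHG1: CTTattgggctcctgtctgcaggatttacg
SNHG32: TTTTagttctttttgcgaagtgggctcgtg
SNHG17: gcctcagtccttcgccgtccctcgccgtcc
SNHG5: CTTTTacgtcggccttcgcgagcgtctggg
A start with C inside a run of at least 4 pyrimidines was found in 6 of 29 annotated GAS5 transcripts and 1 of 25 SNHG1 transcripts, against 3.81% of 206694 transcripts in all. It was found in 4 of 23 transcripts of SNHG5 and in none of those of SNHG32 and SNHG17. The hosts with the highest shares were not among those shown. These were SNHG25 (2 of 2), SNHG19 (1 of 1), SNHG7 (3 of 4) and SNHG6 (3 of 5). Their log2 fold changes were -0.10, 0.26, -0.21 and -0.22, and none passed the test. The start shown was that of 3 of 23 SNHG5, 2 of 8 SNHG17 and 3 of 11 SNHG32 transcripts.

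Of the 21 other host lncRNAs of snoRNAs and small Cajal body RNAs tested, 2 fell and none rose, where 1.62% of all genes fell and 1.75% rose. Their median log2 fold change was -0.26. Of the 21, 15 had a negative log2 fold change. There were 7 lower and 1 higher without overlap, where 14.7% and 14.6% of all genes were. SNHG32 was at 63.4, 64.3 and 70.4 FPKM in the Sh-NC libraries and 44.5, 45.3 and 48.3 FPKM in the Sh-YAP1 libraries, a log2 fold change of -0.51 (limma adjusted p = 0.0232). SNHG17 was at 10.6, 11.6 and 10.2 FPKM across Sh-NC and 6.67, 7.74 and 7.45 FPKM across Sh-YAP1, also a log2 fold change of -0.51 (limma adjusted p = 0.0383). In both genes the groups stood apart, but neither passed when any 1 of the 6 libraries was left out. SNHG5 was at 75.6, 104.3 and 71.6 FPKM in the Sh-NC libraries and 41.9, 51.1 and 58.9 FPKM in the Sh-YAP1 libraries, and did not pass the test (log2 fold change -0.71, limma adjusted p = 0.0875). SNHG8 was the highest at 0.27 (limma adjusted p = 0.205). The spliced RNAs of such hosts are cleared by nonsense-mediated decay, and none of 14 genes of that pathway passed the test. Of the 14, 2 had an unadjusted p under 0.05, where 21.9% of all genes did. Their median was -0.05, from -0.25 for SMG6 to 0.47 for UPF2 (limma adjusted p = 0.0571 for UPF2).

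**Figure D3:**
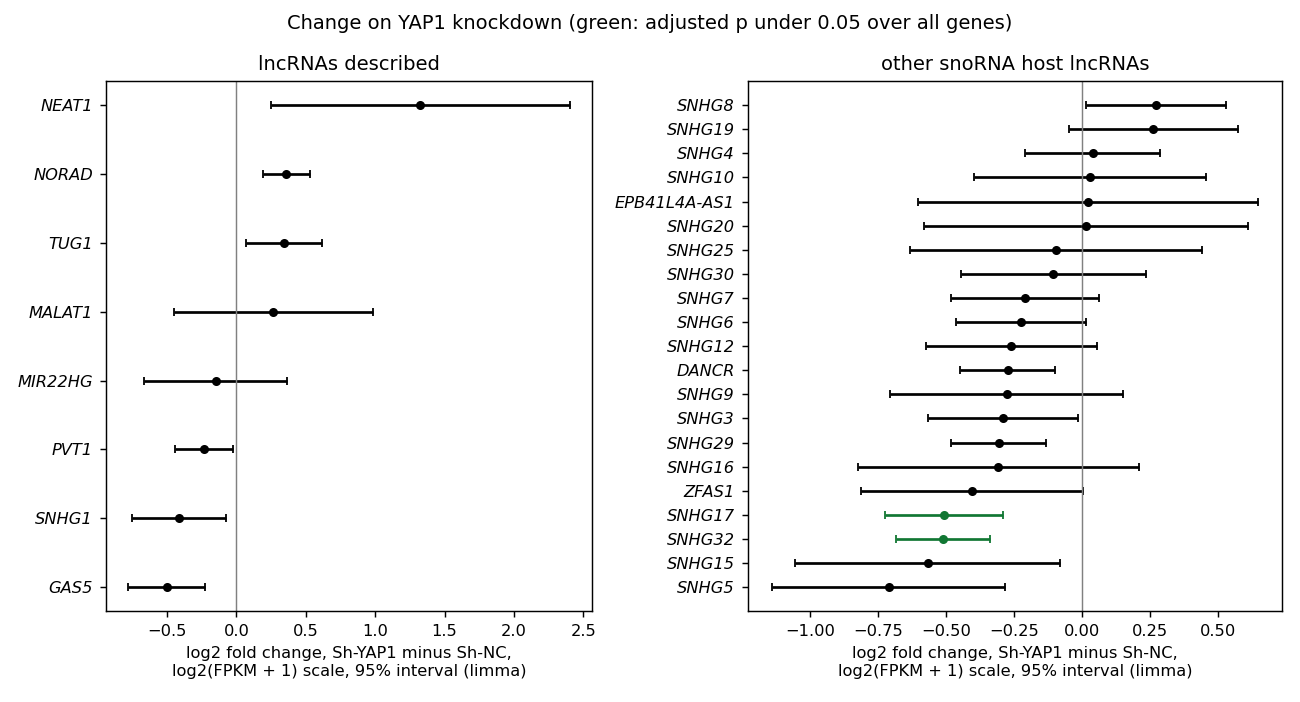
Log2 fold changes, Sh-YAP1 minus Sh-NC, with 95% intervals from limma, of the 8 lncRNAs tested (left) and the 21 other snoRNA and small Cajal body RNA hosts (right), with genes that passed the test in green. On the left, NORAD has the narrowest interval, 0.19 to 0.53, NEAT1 the widest, 0.25 to 2.40, and those of MALAT1 and MIR22HG include 0. On the right, 15 of the 21 points lie below 0, and SNHG17 and SNHG32 are green at -0.51.

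MIR22HG is the host of miR-22 and H19 of miR-675. The mature sequences from RefSeq are shown 5′ to 3′ as the products that the hosts carry, and capitals mark the seed, bases 2 to 8, which pairs with targets. The 4 seeds all differ.
hsa-miR-22-3p: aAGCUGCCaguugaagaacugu
hsa-miR-22-5p: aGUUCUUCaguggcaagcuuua
hsa-miR-675-3p: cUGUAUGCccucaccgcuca
hsa-miR-675-5p: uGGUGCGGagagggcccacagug
On GRCh38.p14, miR-22-3p lies on the minus strand of chromosome 17 from 1713914 to 1713935, and miR-675-5p on the minus strand of chromosome 11 from 1996800 to 1996822. GENCODE 29 also places MIR612 inside NEAT1 and 4 microRNA genes inside PVT1, none of them above 0.34 FPKM, and their sequences are not shown. The promoters of both hosts are shown for comparison with those of NORAD and TUG1, and neither held the TEAD, AP-1 or E-box letters, so they have no capitals.
MIR22HG, GRCh38.p14 chr17:1716161-1716460, minus strand: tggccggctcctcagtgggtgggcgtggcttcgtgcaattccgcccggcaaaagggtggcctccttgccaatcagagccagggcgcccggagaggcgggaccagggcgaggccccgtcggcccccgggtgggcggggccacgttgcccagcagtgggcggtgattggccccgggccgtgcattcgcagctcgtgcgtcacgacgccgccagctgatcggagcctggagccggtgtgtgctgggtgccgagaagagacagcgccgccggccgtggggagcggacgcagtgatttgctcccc
H19, GRCh38.p14 chr11:2001217-2001516, minus strand: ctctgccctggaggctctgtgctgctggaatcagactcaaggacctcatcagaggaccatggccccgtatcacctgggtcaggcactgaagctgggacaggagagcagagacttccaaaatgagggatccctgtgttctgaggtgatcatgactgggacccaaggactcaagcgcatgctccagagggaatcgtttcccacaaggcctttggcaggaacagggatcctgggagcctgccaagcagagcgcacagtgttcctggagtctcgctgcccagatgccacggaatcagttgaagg

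MIR22HG (ENSG00000186594), on the minus strand of chromosome 17 from 1711493 to 1717174, was at 9.23, 7.64 and 9.60 FPKM in the Sh-NC libraries and 9.0, 9.89 and 5.29 FPKM in the Sh-YAP1 libraries. The groups overlapped, and Sh-YAP1 replicate 3 was the lowest. Group means were 8.82 ± 1.04 FPKM for Sh-NC and 8.06 ± 2.44 FPKM for Sh-YAP1 (SD, n = 3 each). This gave a log2 fold change of -0.15 (standard error 0.22, 95% interval -0.67 to 0.37, limma adjusted p = 0.730), and without Sh-YAP1 replicate 3 it was 0.093. The main row of MIR22HG was at 0 in that library and between 2.63 and 5.79 FPKM in the other 5. Without that row the direction turned, with a log2 difference of 0.25 and overlap between the groups. WDR81, a coding gene that overlaps it on the opposite strand, averaged 4.49 FPKM across Sh-NC and 3.86 FPKM across Sh-YAP1. SERPINF2, an inhibitor of plasmin that lies 25.7 kb away, was the only neighbour of the 10 lncRNAs that passed the test among 18 tested, where 3.38% of all genes did. It was at 1.24, 1.28 and 0.95 FPKM across Sh-NC and 0.32, 0.43 and 0.51 FPKM across Sh-YAP1, a log2 fold change of -0.60 (limma adjusted p = 0.0497), and did not pass when any 1 library was left out.

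H19 (ENSG00000130600), an imprinted lncRNA on the minus strand of chromosome 11 from 1995176 to 2001470, was close to 0. It was at 0.36, 0.13 and 0.07 FPKM in the Sh-NC libraries and 0.32, 0.06 and 0.14 FPKM in the Sh-YAP1 libraries, so both groups covered the same range. A two-sided exact permutation test gave p = 0.8. IGF2, a growth factor gene imprinted on the other parental allele, lies 127.6 kb away. IGF2 was at 1.77, 1.11 and 0.98 FPKM across Sh-NC and 0.97, 0.44 and 0.26 FPKM across Sh-YAP1, with a log2 fold change of -0.56 that did not pass the test (limma adjusted p = 0.186).

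PVT1 (ENSG00000249859) lies on the plus strand of chromosome 8 from 127794533 to 128101253, 53.1 kb from MYC. It was at 12.3, 11.8 and 11.1 FPKM across Sh-NC and 8.90, 10.3 and 10.2 FPKM across Sh-YAP1. The groups did not overlap. On average Sh-NC had 11.7 ± 0.59 FPKM and Sh-YAP1 9.82 ± 0.80 FPKM (SD, n = 3 each), a ratio of 0.84. The estimated log2 fold change was -0.23 (standard error 0.09, 95% interval -0.44 to -0.02, limma adjusted p = 0.189). The level was spread over many transcripts, with 98 of 176 rows above 0 and none at a mean of 1 FPKM. Without the 3 rows above 1 FPKM in a single library the log2 fold change was -0.47 (limma adjusted p = 0.0518). MYC, which encodes a transcription factor of growth, lay between 5.38 and 8.06 FPKM with a log2 fold change of -0.09 (limma adjusted p = 0.762).

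Of 10 other lncRNAs linked to microRNAs or cancer that could be tested, none passed the test, 3 had an unadjusted p under 0.05 (limma) and 2 had no overlap between the groups. Over all genes these shares were 3.38%, 21.9% and 29.4%. Their log2 fold changes ran from -0.61 for MIR503HG, which averaged 3.28 ± 1.07 FPKM across Sh-NC and 1.75 ± 0.16 FPKM across Sh-YAP1 (SD, n = 3 each), to 0.65 for MIR210HG. Over all 1338 lncRNA genes tested, 9 rose and 10 fell, smaller shares than the 1.75% and 1.62% of all genes. The median log2 fold change of the 1338 was 0.03. Of these, 165 (12.3%) were higher and 97 (7.25%) lower without overlap, both below the 14.6% and 14.7% of all genes.

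**Figure D4:**
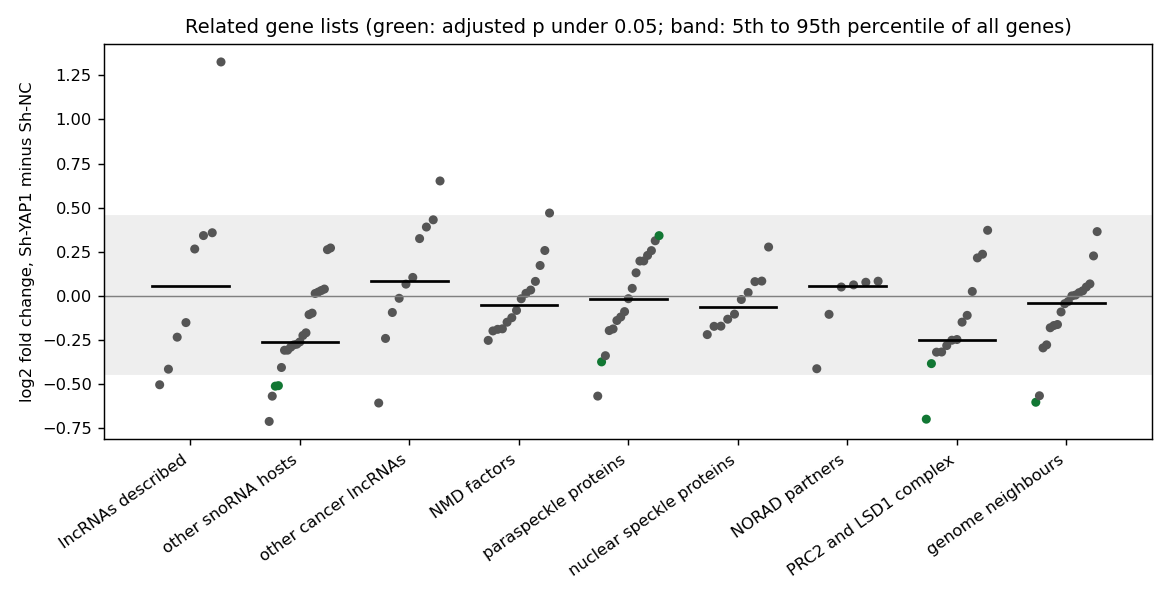
Log2 fold changes, Sh-YAP1 minus Sh-NC, of the tested genes of the 10 lncRNAs and of each related list. Each point is a gene, green points had an adjusted p under 0.05 (limma), the bar is the median of the list and the band spans the 5th to the 95th percentile of all genes tested, -0.44 to 0.45. The other snoRNA hosts have a median of -0.26 and the PRC2 and LSD1 genes of -0.25, against -0.0014 over all genes tested.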

How the data were processed

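RNA of MDA-MB-231 cells was sequenced by LC-Bio for the authors, 3 libraries of Sh-NC and 3 of Sh-YAP1. The authors deposited FPKM values with 2 decimals for 229420 transcripts of 60612 gene identifiers. The submitters' processing notes name hg19, Bowtie 0.12.2 and HISAT2 2.0. The quantification tool, annotation and strandedness are not given in the sources used here, and these steps could not be varied. The accession in the paper's methods is that of a different series, and the libraries were matched by cell line, hairpin and number of replicates. The files hold no coordinates and no read counts, so depth is unknown and errors come from the spread between libraries.

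Rows sharing a gene identifier were summed. A table of gene names gave 60401 symbols, and 58394 identifiers were found in GENCODE 29, used for positions. TALAM1, HULC and LINC00473 were not matched. Groups were compared with limma 3.58.1 (lmFit, eBayes with trend) in R 4.3.3 on log2(FPKM + 1), for genes whose mean reached 0.5 FPKM, with Benjamini-Hochberg adjustment over 14770 genes, and single lncRNAs also with an exact two-sided permutation test. The code was tested on simulated data. Other steps used Python 3.11.15, numpy 2.4.6 and pandas 2.3.3. The 10 lncRNAs and the related lists were chosen with earlier results of these data known. The values of some genes named by the rule that follows are not reported here. From each related list, the genes that passed the test and those with the highest and lowest log2 fold change were named, beside the neighbours of each lncRNA, its 3 rows of highest mean, and the 3 genes whose centred values lay nearest to it. Promoters and microRNAs were to be shown for lncRNAs that passed the test or host a microRNA. Those of NORAD and TUG1 were added after their values were seen, and the microRNAs inside PVT1 and NEAT1 are not shown. Alternatives covered pseudocounts of 0.1 and 0.01, no filter and a filter of 1 FPKM, quantile normalization, median centring, rescaling to a common total, no trend, the replicate number as a block, sums over rows with a mean of at least 0.1 FPKM, sums without rows above 1 FPKM in a single library, and each library left out.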

Additional observations from a re-analysis of the deposited data

How the results depend on the processing

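Over 17 alternatives, the 8 lncRNAs gave 136 values, of which 132 kept their direction and their side of the threshold (limma, Benjamini-Hochberg adjusted p of 0.05). The 132 include NEAT1 without rows above 1 FPKM in a single library, where its log2 fold change fell from 1.33 to 0.00. NORAD accounted for 2, as 1 of the 10 lncRNAs passed with a filter of 1 FPKM (0.36, adjusted p = 0.0470) and 1 with quantile normalization (0.41, adjusted p = 0.0436), against 0 in the analysis reported. The other 2 changed direction, MALAT1 to -0.098 without Sh-YAP1 replicate 1, within a range of -0.098 to 0.49 as each library was left out, and MIR22HG to 0.093 without Sh-YAP1 replicate 3, within a range of -0.30 to 0.093. The cause was not tested.

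The log2 fold change ranged from 0.31 to 0.41 for NORAD, from 0.25 to 0.42 for TUG1, from -0.58 to -0.38 for GAS5, from -0.54 to -0.27 for SNHG1, from -0.47 to -0.17 for PVT1 and from 0.00 to 1.82 for NEAT1. Of all genes, 499 passed the test, against 232 without a filter, 1 with the replicate block and 80 to 170 with a library left out, which leaves fewer samples. Of the other snoRNA hosts, 2 passed, against 1 without a filter, 1 with rows of a mean of at least 0.1 FPKM, 1 without rows above 1 FPKM in a single library, 0 with the replicate block and 0 to 0 with each library left out in turn. TAF15, SNHG32, SNHG17, RCOR1 and SERPINF2 each lost the threshold with any 1 of the 6 libraries left out and with the block, whereas EZH2 lost it only with the block (adjusted p = 0.103). Without a filter TAF15, SNHG17 and SERPINF2 lost it, as they did without rows above 1 FPKM in a single library. With rows of a mean of at least 0.1 FPKM SNHG17 and SERPINF2 lost it, and with no trend TAF15 and RCOR1. TAF15 also lost it with median centring and rescaling, and SERPINF2 with both pseudocounts and quantile normalization. These adjusted p ranged from 0.0513 to 0.110.

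Libraries of the same number did not pair, with correlations of their deviations of -0.028, 0.062 and 0.004. With the replicate number as a block, 0 of the lncRNAs passed the test and 5 had an unadjusted p under 0.05, against 6 without it, where 18.8% and 21.9% of all genes did. The FPKM values give no depth, so it cannot be said which low values, such as those of H19 and HOTAIR, lie under the limit of detection.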

Other observations

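Some small RNAs inside the lncRNAs differed widely between libraries of the same group, and the 3 given here were chosen for that after their values were seen, whereas others, such as SNORD28 in SNHG1 at 0.07 to 0.11 FPKM, did not. SNORD30, in an intron of SNHG1, was at 6.37, 8.68 and 8.79 FPKM in Sh-NC and 7.02, 0.13 and 0.12 FPKM in Sh-YAP1. SNORD22, in the same gene, was at 4.75 and 9.40 FPKM in Sh-YAP1 replicates 1 and 3 and at 0.02 to 0.03 FPKM in the other 4 libraries. MIR22, inside MIR22HG, was at 7.37 FPKM in Sh-YAP1 replicate 2, at 1.51 FPKM in Sh-NC replicate 3 and at 0.10 to 0.14 FPKM elsewhere. Small structured RNAs overlapped between the groups and were high in Sh-NC replicates 1 and 2 and Sh-YAP1 replicate 2. RN7SK was at 59.1, 63.6 and 21.2 FPKM in Sh-NC and 19.6, 64.7 and 15.5 FPKM in Sh-YAP1, and none of 5 such genes tested passed the test (limma, 0 with an unadjusted p under 0.05), where 3.38% and 21.9% of all genes did.

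The genes whose 6 centred log2 values lay nearest to those of an lncRNA were XPA, LARS1 and ABITRAM for NORAD, with root mean square differences of 0.0198, 0.0241 and 0.0248. For PVT1 they were GPS1, PELO and RAN, at 0.0114 to 0.0189, and for GAS5 CD82, NFKBIE and PLSCR3, at 0.0439 to 0.0515. The nearest to NEAT1 was MVP-DT at 0.286, a much looser match.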
